A study of Homo sapiens with 12 samples.

Results

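The 46 genes described here encode the machinery that copies DNA in S phase. They were matched by gene symbol, and all 46 were found among the 62426 genes of the count table. By role they comprise 10 origin licensing genes, 6 genes of helicase activation, 6 of the DNA polymerases and primase, 7 of the sliding clamp, its loader and Okazaki fragment maturation, 5 of nucleotide supply, 4 of chromatin assembly and histone mRNA, 3 E2F transcription factors and 5 of fork protection and repair. They were measured by RNA sequencing in the human colon cancer lines HCT116 and SW480, each as cells labelled CD44s-OE (stably transfected with the standard isoform of the adhesion receptor CD44), CD44v6-OE (stably transfected with the isoform that includes variable exon 6) and parental, with 2 libraries in each of the 6 groups (12 in all). Transfected cells were selected with Geneticin, and the controls are labelled as parental cells, so against parental cells the isoform cannot be told apart from transfection and selection, which CD44s-OE and CD44v6-OE cells share. The file headers carry the word POOL in the names of the overexpressing libraries and nothing states that the 2 libraries of a group came from separate cultures, so p-values measure the spread between these libraries, which may be technical.

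Before S phase, ORC1, ORC6, CDC6 and CDT1 load the MCM2 to MCM7 helicase onto origins in an inactive form. CDC45 and the GINS complex then join it, primase and polymerase alpha start each new strand, and polymerases epsilon and delta extend the strands on the PCNA clamp, which the RFC complex loads. Transcription of many of these genes is driven by E2F factors at the passage from G1 to S phase.

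An E2F-type motif was present near the start sites of many of the 46 genes. RefSeq windows of 300 bases, with 250 before and 50 after the start site (build GRCh38.p14), were found for 42 of the 46 genes, in 57 windows; MCM4, MCM5, GINS4 and E2F8 had none. The words TTTCCCGC, TTTGGCGC, TTTCGCGC and TTTGCCGC were searched on both strands. At least 1 of them stood in 24 of the 57 windows (42.1%), belonging to 23 of the 42 genes, against 3.31% of all 35116 human windows of this length. The stretches of 60 bases below, in the direction of transcription and with the motif in capitals, are of 7 genes that fell in HCT116 CD44s-OE cells (MCM2, CDT1, GINS2, LIG1, DUT, E2F2 and UNG) and of 2 genes that did not pass the test there (E2F1 and CLSPN). The MCM2 stretch is chr3:127598387-127598446 on the plus strand, where TTTCGCGC is found on both strands, sharing the letters GCGC, starting at position 3 from the start site. CDT1 is at chr16:88803728-88803787 on the plus strand, GINS2 at chr16:85688952-85689011 on the minus strand and LIG1 at chr19:48170425-48170484 on the minus strand. DUT is at chr15:48332129-48332188 on the plus strand, E2F2 at chr1:23531242-23531301 on the minus strand and UNG at chr12:109098083-109098142 on the plus strand. E2F1 is at chr20:33686385-33686444 on the minus strand and CLSPN at chr1:35769950-35770009 on the minus strand.
MCM2: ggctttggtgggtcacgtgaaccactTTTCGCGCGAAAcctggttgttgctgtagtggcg
CDT1: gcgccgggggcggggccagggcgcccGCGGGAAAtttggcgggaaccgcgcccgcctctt
GINS2: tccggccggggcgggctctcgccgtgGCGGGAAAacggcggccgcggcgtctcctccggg
LIG1: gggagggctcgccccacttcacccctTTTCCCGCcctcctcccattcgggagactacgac
DUT: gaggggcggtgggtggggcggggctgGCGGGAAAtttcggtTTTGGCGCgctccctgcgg
E2F2: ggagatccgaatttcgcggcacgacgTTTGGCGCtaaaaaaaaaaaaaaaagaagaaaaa
UNG: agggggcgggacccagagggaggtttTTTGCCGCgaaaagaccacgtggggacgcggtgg
E2F1: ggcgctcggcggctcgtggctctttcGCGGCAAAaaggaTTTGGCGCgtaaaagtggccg
CLSPN: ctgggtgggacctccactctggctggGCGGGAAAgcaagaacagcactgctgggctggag

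Libraries held 43102156 to 52811889 counted reads and 23601 to 26072 genes with a count. The count of CD44 sums all isoforms: it was 572 and 518 CPM (counts scaled to library size, with the trimmed mean of M values, TMM, within the line) in HCT116 CD44s-OE, 504 and 508 in CD44v6-OE, and 540.1 and 541 in parental cells. In SW480 it was 179 and 204 CPM in CD44s-OE, 131 and 146 in CD44v6-OE, and 188 and 163 in parental cells. Total CD44 passed the test in no comparison within a line, so the gene counts do not show the overexpression that the labels name, and CD44s-OE and CD44v6-OE are used throughout as the labels of the libraries. Of 8 colon epithelial markers 7 or 8 had counts in both libraries of each group, while the leukocyte marker PTPRC had no count in either library of 5 groups and 6 leukocyte markers summed to at most 5.33 CPM. Mitochondrially encoded genes took 11.8% and 10.3% of counts in HCT116 CD44s-OE libraries, 7.48% and 7.41% in CD44v6-OE, and 7.56% and 4.84% in parental libraries, against 4.34% to 7.73% in SW480.

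Transcripts of all 46 genes were measured in every library, with at least 170 counts, and all 46 passed the filter on low counts in both lines. On a scale corrected for gene length and library size (TPM), PCNA stood highest in HCT116 parental cells at 589.8 ± 51.4 TPM (SD, n = 2), followed by TK1 at 588 ± 0.11 and MCM7 at 562 ± 29.0, and these 3 lay within the spread of PCNA. In SW480 parental cells MCM7 had 816 ± 5.53 TPM and PCNA 716 ± 67.4. BRCA2, the recombination protein, was lowest in HCT116 parental cells at 1.82 ± 0.041 TPM. In SW480 parental cells E2F2 (3.64 ± 1.1 TPM) and BRCA2 (4.00 ± 0.84 TPM) were the 2 lowest and did not differ beyond their spread. The median of the 46 group means was 42.1 TPM in HCT116 CD44s-OE, 51.9 in CD44v6-OE and 63.5 in parental cells, and in SW480 it was 57.7 TPM in CD44s-OE, 58.2 in CD44v6-OE and 55.8 in parental cells.

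Most of the 46 replication genes were lower in HCT116 cells labelled CD44s-OE than in parental HCT116 cells. The genes that passed per role ranged from 1 of 5 in fork protection and repair to all 5 in nucleotide supply. The 46 genes together took 0.451% and 0.52% of all counts in the CD44s-OE libraries, against 0.677% and 0.694% in the parental libraries. In edgeR's quasi-likelihood test, 28 of the 46 genes passed an adjusted p of 0.1 as lower and 0 as higher. Of all 17335 tested genes 5.71% passed as lower and 8.45% as higher. An unadjusted p under 0.05 was found for 35 of the 46, and for 4372 of the 17335. DESeq2 called 32 of the 46 genes lower. Their median log2 fold change was -0.50 (range -0.91 to 0.18), and that of all tested genes was 0.04. None of the 28 reached the study's minimum absolute log2 fold change of 1.5, which 3.09% of tested genes reached together with the adjusted p. Both CD44s-OE libraries lay below both parental libraries for 39 of the 46 genes, as for 24.0% of all tested genes, and in 7 (CLSPN, POLA2, BRCA2, POLE2, GINS3, BRCA1 and RFC4) the libraries overlapped. Less RNA per cell and fewer cells in S phase cannot be told apart in these bulk samples.

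How many genes passed depended on single libraries. Without parental replicate 2, only MCM2 passed as lower, with 0.386% of all tested genes passing as lower. Without parental replicate 1, 14 members passed, and without CD44v6-OE replicate 1 or 2, 15 passed in each case, against 1.96% to 1.99% of all tested genes. Without CD44s-OE replicate 1, 32 were lower and BRCA2 was higher, where 13.7% of all tested genes were lower and 14.9% higher, and without CD44s-OE replicate 2, 39 were lower, where 11.9% of all tested genes were. A group left with 1 library adds nothing to the estimated spread, which then comes from the other groups, here and in the other fits without a library. In all 6 of these fits the median of the 46 genes lay between -0.62 and -0.45, and 40 to 46 of the 46 estimates were below 0. The median of all tested genes lay between 0.01 and 0.08. Mitochondrially encoded genes took more of the counts in these CD44s-OE libraries. With those genes left out, 29 members passed as lower, where 5.76% of all tested genes did. The part of the mitochondrial share in the levels of the 46 genes was not tested.

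**Figure D1:**
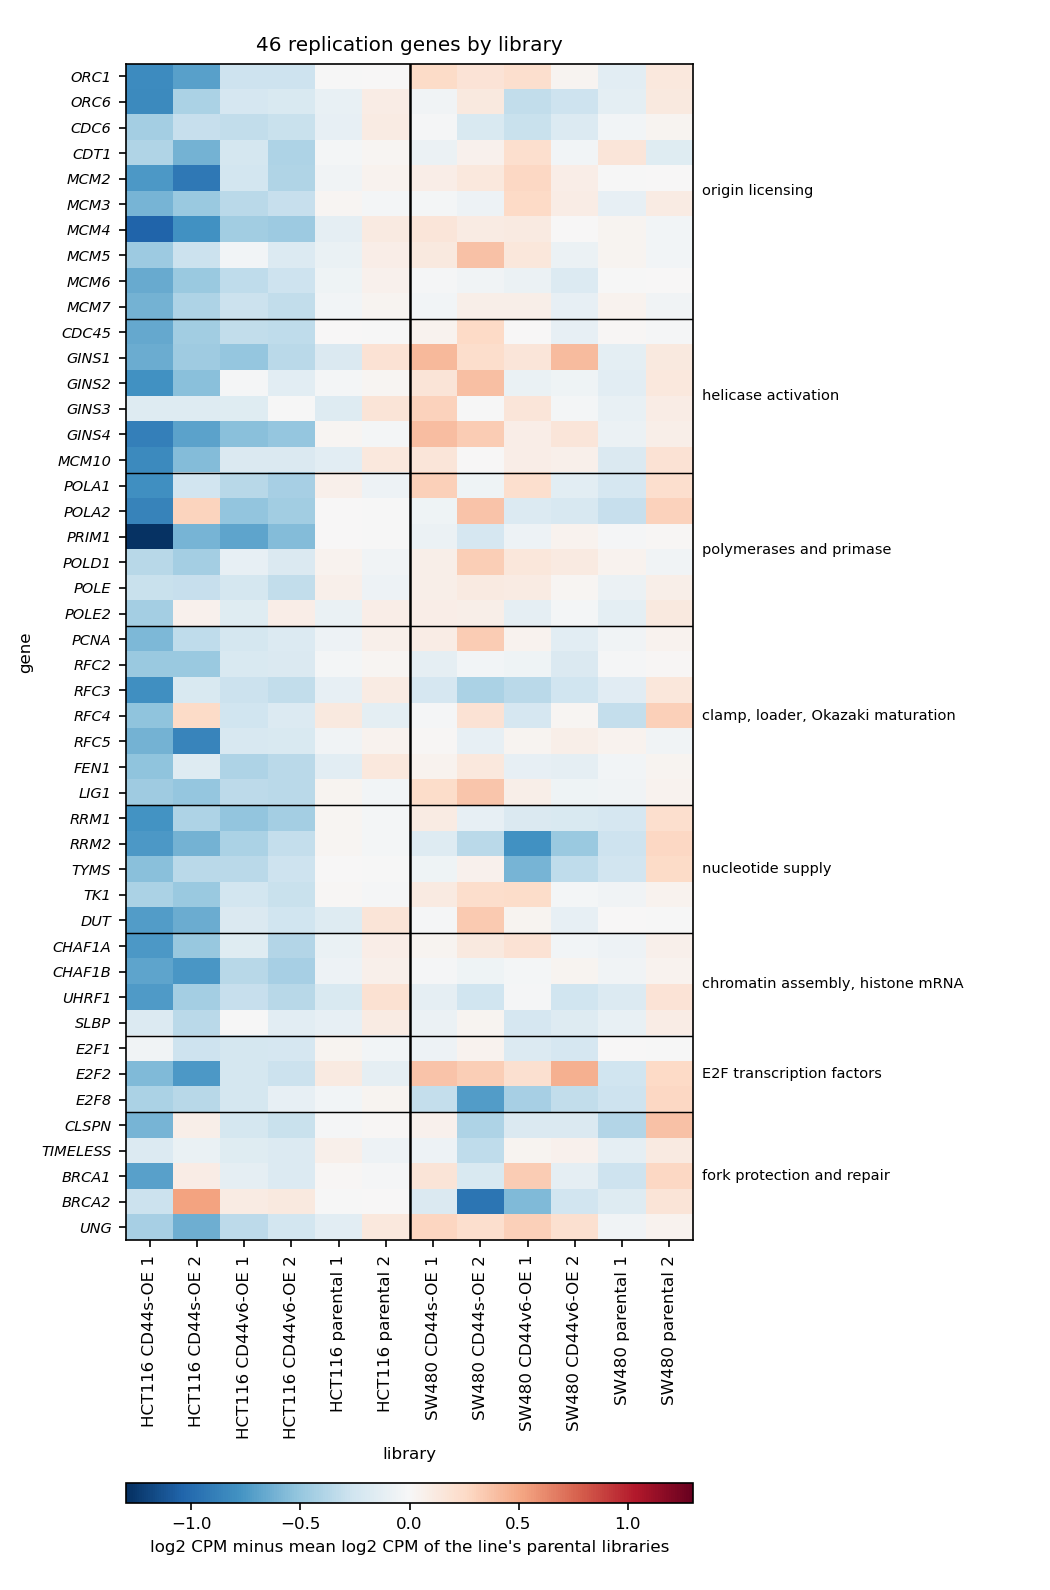
Levels of the 46 genes in the 12 libraries, as log2 CPM minus the mean log2 CPM of the line's 2 parental libraries, with genes in rows by role and libraries in columns. HCT116 CD44s-OE 1 is below the parental mean for all 46 genes and CD44s-OE 2 for 40 of them, whereas in SW480 both directions occur in each library.

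Of the origin licensing genes, 8 of 10 were lower in HCT116 CD44s-OE cells, with a median log2 fold change of -0.55. MCM4, a helicase subunit, had 186 and 223 CPM in CD44s-OE cells, against 355 and 418 CPM in parental cells (log2 fold change -0.91 ± 0.14, adjusted p = 0.00734, with ± the standard error here and below). Its partner MCM2 had 255 and 226 CPM in CD44s-OE cells, against 415 and 444 CPM in parental cells (-0.84 ± 0.13, adjusted p = 0.00734). In both genes the CD44s-OE libraries lay well under the parental ones and did not overlap them. ORC1, the largest subunit of the origin recognition complex, had 34.5 and 37.2 CPM in CD44s-OE cells, against 60.7 and 60.8 CPM in parental cells (-0.76 ± 0.13, adjusted p = 0.0124). CDT1, which brings the helicase to origins, had 244 and 210.4 CPM in CD44s-OE cells, against 315 and 328 CPM in parental cells (-0.50 ± 0.13, adjusted p = 0.0489). ORC6, MCM3, MCM6 and MCM7 also fell, by 0.61, 0.54, 0.57 and 0.50 on the log2 scale. The licensing ATPase CDC6 had 81.8 and 90.5 CPM in CD44s-OE cells, against 103 and 119.9 CPM in parental cells (-0.37 ± 0.13, adjusted p = 0.118) and MCM5 had 350.0 and 402 CPM in CD44s-OE cells, against 460.1 and 515 CPM in parental cells (-0.38 ± 0.13, adjusted p = 0.108). Neither passed, although in both the CD44s-OE libraries lay below the parental ones.

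In helicase activation, 4 of 6 genes were lower. GINS4, a GINS subunit, had 18.1 and 20.7 CPM in CD44s-OE cells, against 34.2 and 32.9 CPM in parental cells (-0.79 ± 0.15, adjusted p = 0.0183). GINS2, another subunit, had 66.4 and 78.7 CPM in CD44s-OE cells, against 113 and 116 CPM in parental cells (-0.66 ± 0.14, adjusted p = 0.0232). For both, the higher CD44s-OE library was still clearly below the lower parental library. MCM10, which helps to activate the loaded helicase, had 29.6 and 35.4 CPM in CD44s-OE cells, against 47.7 and 57.5 CPM in parental cells (-0.70 ± 0.16, adjusted p = 0.0307). CDC45, part of the active helicase, had 28.3 and 32.8 CPM in CD44s-OE cells, against 45.1 and 44.9 CPM in parental cells (-0.56 ± 0.14, adjusted p = 0.0475). GINS1 just missed the threshold at -0.56 ± 0.19 (adjusted p = 0.1003), and GINS3 was at -0.17 ± 0.17, adjusted p = 0.562 with overlapping libraries.

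Of the polymerase and primase genes 2 of 6 were lower, and all 6 estimates were below 0. PRIM1, the catalytic primase subunit, had 12.0 and 19.2 CPM in CD44s-OE cells, against 29.4 and 28.9 CPM in parental cells (-0.90 ± 0.22, adjusted p = 0.0372). Its CD44s-OE libraries differed by more from each other than the parental ones did, and both were lower. POLD1, the catalytic subunit of polymerase delta, was at -0.40 ± 0.12, adjusted p = 0.0766. POLA1, POLA2, POLE and POLE2 did not pass, with log2 fold changes of -0.50, -0.18, -0.29 and -0.17. POLA2, a polymerase alpha subunit, had 3.42 and 7.64 CPM in CD44s-OE cells, against 6.27 and 6.25 CPM in parental cells, so that 1 CD44s-OE library was below and the other above both parental libraries.

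PCNA, the sliding clamp, had 185 and 220.3 CPM in CD44s-OE cells, against 265 and 292 CPM in parental cells (-0.46 ± 0.13, adjusted p = 0.0661). RFC5, a clamp loader subunit, had 74.4 and 62.7 CPM in CD44s-OE cells, against 111 and 117 CPM in parental cells (-0.73 ± 0.13, adjusted p = 0.0153). LIG1, the ligase that joins Okazaki fragments, had 103 and 100.5 CPM in CD44s-OE cells, against 147 and 139 CPM in parental cells (-0.49 ± 0.12, adjusted p = 0.0409). With RFC2 (-0.48 ± 0.12, adjusted p = 0.0416), 4 of the 7 genes of this group fell, where 5.71% of all tested genes did. None of these 4 had overlapping libraries, which adds nothing to a test on the same libraries. RFC3, RFC4 and the flap nuclease FEN1 did not pass, at -0.47, -0.09 and -0.34.

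All 5 nucleotide supply genes were lower. RRM2, the small subunit of ribonucleotide reductase, had 176 and 193 CPM in CD44s-OE cells, against 301 and 292 CPM in parental cells (-0.68 ± 0.12, adjusted p = 0.0131). DUT, which removes dUTP, had 47.9 and 50.6 CPM in CD44s-OE cells, against 70.7 and 88.8 CPM in parental cells (-0.69 ± 0.15, adjusted p = 0.025). TYMS, thymidylate synthase, had 219 and 251 CPM in CD44s-OE cells, against 319.7 and 319.6 CPM in parental cells (-0.44 ± 0.12, adjusted p = 0.0586). The groups did not overlap in any of the 3, which adds nothing to the test on the same libraries. RRM1, the large reductase subunit, and TK1, thymidine kinase, were at -0.58 ± 0.15, adjusted p = 0.0458 and -0.45 ± 0.11, adjusted p = 0.0459. Annotated pseudogene copies of RRM2, DUT, TYMS, PCNA, UNG, FEN1, RFC3 and BRCA1 held at most 14 counts in a library, or 0.234% of the gene's own count.

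**Figure D2:**
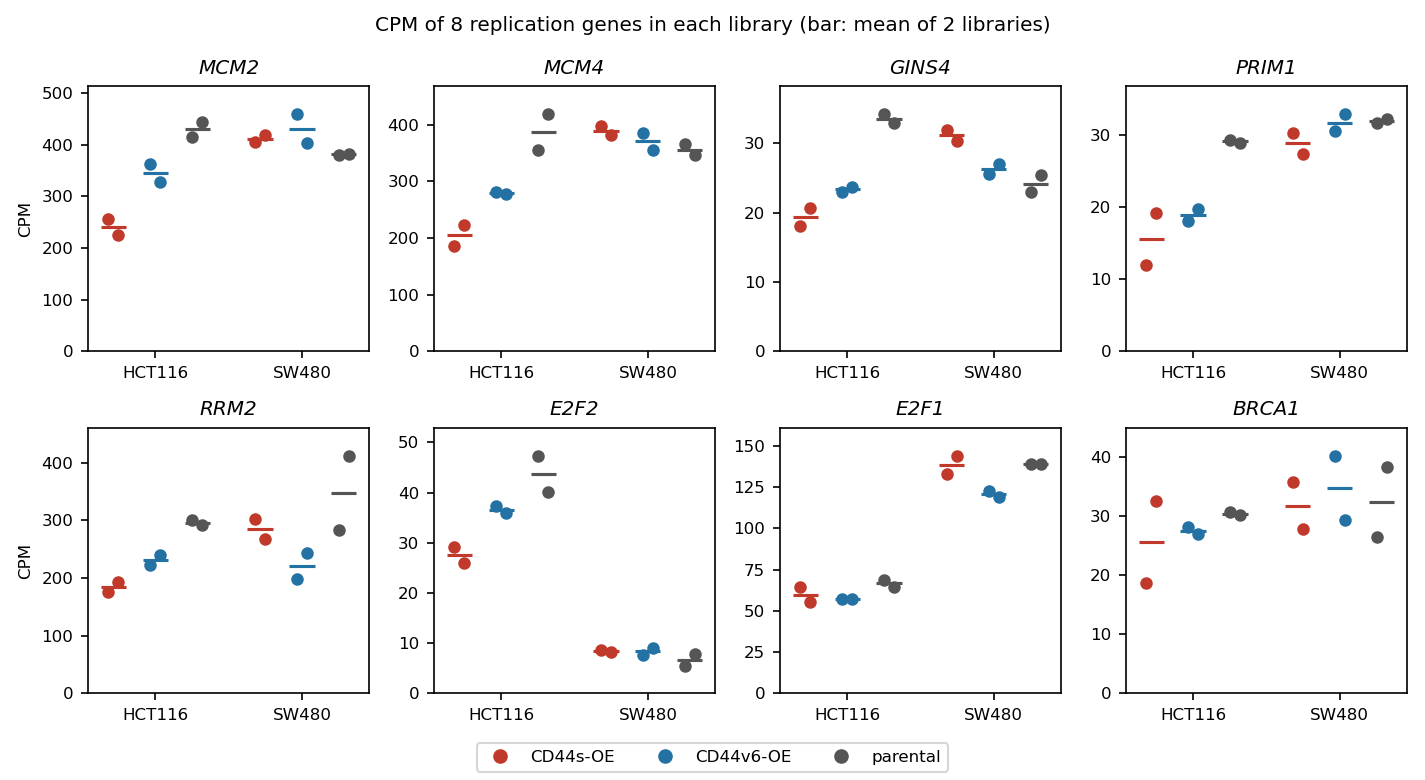
CPM of 8 of the genes in each library, with points for libraries and bars for the mean of the 2, and CD44s-OE, CD44v6-OE and parental cells from left to right within each line. MCM2, MCM4, GINS4, PRIM1, RRM2 and E2F2 are lower in HCT116 CD44s-OE than in HCT116 parental libraries without overlap, the HCT116 libraries of E2F1 lie between 55.3 and 68.5 CPM, and the BRCA1 libraries of CD44s-OE lie at 18.7 and 32.6 CPM.

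Chromatin assembly genes followed, with 3 of 4 lower. CHAF1B, a subunit of the CAF-1 histone chaperone, had 50.2 and 47.5 CPM in CD44s-OE cells, against 76.9 and 84.1 CPM in parental cells (-0.72 ± 0.13, adjusted p = 0.014), and CHAF1A, its partner, was at -0.62 ± 0.15, adjusted p = 0.0357. UHRF1, which directs maintenance DNA methylation to new strands, had 58.3 and 71.5 CPM in CD44s-OE cells, against 84.5 and 112 CPM in parental cells (-0.60 ± 0.17, adjusted p = 0.0598). The histone mRNA binding protein SLBP was at -0.27 ± 0.14, adjusted p = 0.253. Of the E2F factors, only the activator E2F2 passed, with 29.3 and 25.98 CPM in CD44s-OE cells, against 47.2 and 40.2 CPM in parental cells (-0.66 ± 0.15, adjusted p = 0.032). E2F1, another activator, had 64.4 and 55.3 CPM in CD44s-OE cells, against 68.5 and 64.8 CPM in parental cells (-0.15 ± 0.13, adjusted p = 0.51, 95% interval -0.46 to 0.15). E2F8, a repressor of the family, had 19.0 and 19.6 CPM in CD44s-OE cells, against 24.6 and 25.9 CPM in parental cells (-0.39 ± 0.15, adjusted p = 0.145). The 3 estimates had the same sign, and a difference between them was not tested.

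Of the fork protection and repair genes 1 of 5 was lower. This was UNG, the uracil glycosylase, with 113 and 98.6 CPM in CD44s-OE cells, against 139 and 167 CPM in parental cells (-0.54 ± 0.14, adjusted p = 0.05). CLSPN, the checkpoint mediator claspin, had 18.6 and 30.0 CPM in CD44s-OE cells, against 28.1 and 28.7 CPM in parental cells (-0.22 ± 0.21, adjusted p = 0.555). BRCA1 had 18.7 and 32.6 CPM in CD44s-OE cells, against 30.7 and 30.1 CPM in parental cells and BRCA2 had 6.42 and 11.3 CPM in CD44s-OE cells, against 7.79 and 7.84 CPM in parental cells. In all 3, CD44s-OE replicate 1 was the lowest of the 4 libraries and replicate 2 the highest, and without replicate 1 the log2 fold change of CLSPN was 0.07. TIMELESS, a component of the fork protection complex, was at -0.13 ± 0.12, adjusted p = 0.553. Over the 46 genes, the 2 CD44s-OE libraries differed by over 1.3-fold in 10 genes, against 2 genes for the parental libraries. The share of all tested genes that did so was not counted.

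**Figure D3:**
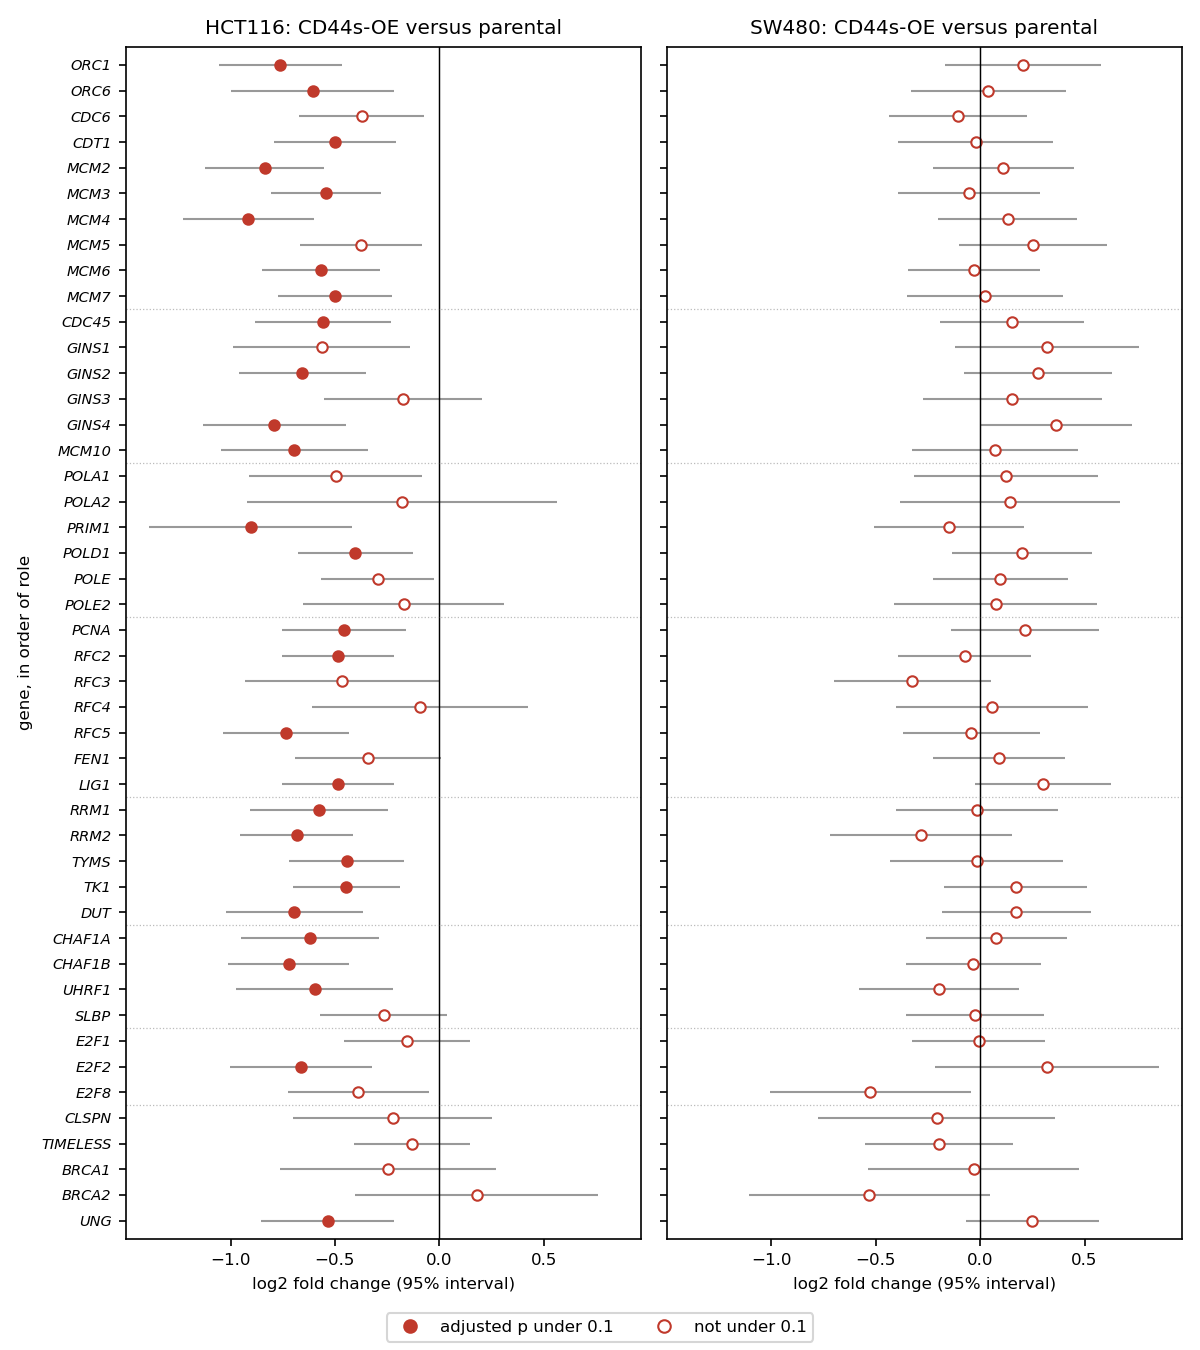
log2 fold change of each gene in CD44s-OE against parental cells with its 95% interval, HCT116 on the left and SW480 on the right, genes in order of role; filled points have an adjusted p under 0.1. In HCT116 28 points are filled and all lie below 0; in SW480 none is filled and the points lie on both sides of 0.

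Some other genes of replication and of the later cell cycle also passed as lower in HCT116 CD44s-OE cells, as did 5.71% of all tested genes. Of 48 further replication genes 12 passed as lower and 0 as higher (median -0.33), among them the histone chaperone ASF1B (log2 fold change -0.63 ± 0.13, adjusted p = 0.0258) and the E2F partner TFDP1 (-0.62 ± 0.12, adjusted p = 0.0189). Of those 48 estimates 9 were above 0, the highest at 0.76. Of 25 mitosis genes 12 passed as lower and 0 as higher (median -0.36). Among them were the anaphase activator CDC20 at -0.86 ± 0.13 (adjusted p = 0.0074) and the kinase PLK1 at -0.83 ± 0.12 (adjusted p = 0.00532). Of these 25 estimates 6 were above 0, the highest at 0.92. Of 7 tested epithelial markers 2 passed, CDH1 (-1.61 ± 0.23, adjusted p = 0.00541) and EPCAM (-1.14 ± 0.18, adjusted p = 0.00908), both as lower. Of the 7 estimates 5 were below 0 and 2 above, the highest at 2.34. KRT19 had 1266 and 1435 CPM of total counts in CD44s-OE, against 1262 and 1162 CPM in parental libraries. VIL1 was scarce, at 0.19 and 0.41 CPM against 0.08 and 0.04 CPM. The 8 markers summed to 5844 and 7093 CPM in CD44s-OE, which overlapped the 6849 to 8243 CPM in parental libraries. Of the fibroblast markers COL1A1 was higher (0.97 ± 0.22, adjusted p = 0.0302) and PDGFRB lower (-2.0 ± 0.67, adjusted p = 0.0982). PDGFRB was scarce, at 0.14 and 0.12 CPM in CD44s-OE, against 0.74 and 0.28 CPM in parental libraries. The 6 fibroblast markers summed to 24.8 and 37.6 CPM in CD44s-OE, against 13.3 to 19.1 CPM in parental libraries. No leukocyte or endothelial marker passed. The part of these markers in the levels of the replication genes was not tested.

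In CD44v6-OE cells of HCT116 most estimates were below 0, but the test separated none of the 46 genes from parental cells. None of the 46 genes passed in edgeR's test, where 1.53% of all tested genes passed in either direction, and DESeq2 called 1, GINS4, as lower. An unadjusted p under 0.05 was found for 19 of the 46, and for 1933 of all 17335 tested genes. The median log2 fold change was -0.27 (range -0.63 to 0.11), with 45 of 46 estimates below 0. Over all tested genes the median was 0.00, with 49.9% below 0. Both CD44v6-OE libraries lay below both parental libraries for 40 genes, as for 24.7% of all tested genes, and above them for 1, BRCA2, as for 27.1%. The parental libraries are the same as in the comparison above. PRIM1 had 18.1 and 19.7 CPM in CD44v6-OE cells, against 29.4 and 28.9 CPM in parental cells (-0.63 ± 0.22, adjusted p = 0.307). MCM4 had 281 and 278 CPM in CD44v6-OE cells, against 355 and 418 CPM in parental cells (-0.47 ± 0.14, adjusted p = 0.22). GINS2 stayed nearer to parental, with 113 and 104 CPM in CD44v6-OE cells, against 113 and 116 CPM in parental cells (-0.08 ± 0.13, adjusted p = 0.877). With only the 4 libraries of these groups 17 members passed as lower, and without CD44s-OE replicate 1 or 2 the numbers were 17 and 18, while 2.96% to 3.24% of all tested genes passed as lower.

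Set directly against the CD44v6-OE libraries of HCT116, most CD44s-OE estimates were below 0, but again the test separated none of the 46 genes. None of the 46 genes passed in edgeR's test, where 0.813% of all tested genes did in either direction, and DESeq2 called ORC1, RFC5, GINS2 and MCM2 lower. An unadjusted p under 0.05 was found for 13 of the 46, and for 1824 of all 17335 tested genes. The median was -0.22, with 39 of 46 estimates below 0, where that of all tested genes was 0.01, with 48.8% below 0. Both CD44s-OE libraries lay below both CD44v6-OE libraries for 28 genes, as for 20.9% of all tested genes. GINS2 had 66.4 and 78.7 CPM in CD44s-OE cells, against 113 and 104 CPM in CD44v6-OE cells (-0.58 ± 0.14, adjusted p = 0.134, 95% interval -0.88 to -0.28). For RFC5 the values were 74.4 and 62.7 CPM in CD44s-OE cells and 98.9 and 99.7 CPM in CD44v6-OE cells (-0.53 ± 0.13, adjusted p = 0.164). MCM2 had 255 and 226 CPM in CD44s-OE cells and 364 and 328 CPM in CD44v6-OE cells (-0.52 ± 0.13, adjusted p = 0.144). These 3 genes showed no overlap between the groups. PRIM1 did overlap, with 12.0 and 19.2 CPM in CD44s-OE cells and 18.1 and 19.7 CPM in CD44v6-OE cells (-0.28 ± 0.22, adjusted p = 0.72). Without CD44s-OE replicate 2, 14 genes passed as lower, where 3.97% of all tested genes did. Without replicate 1, 6 passed as lower and POLA2 and RFC4 as higher, where 6.98% of all tested genes passed as lower and 5.89% as higher.

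**Figure D4:**
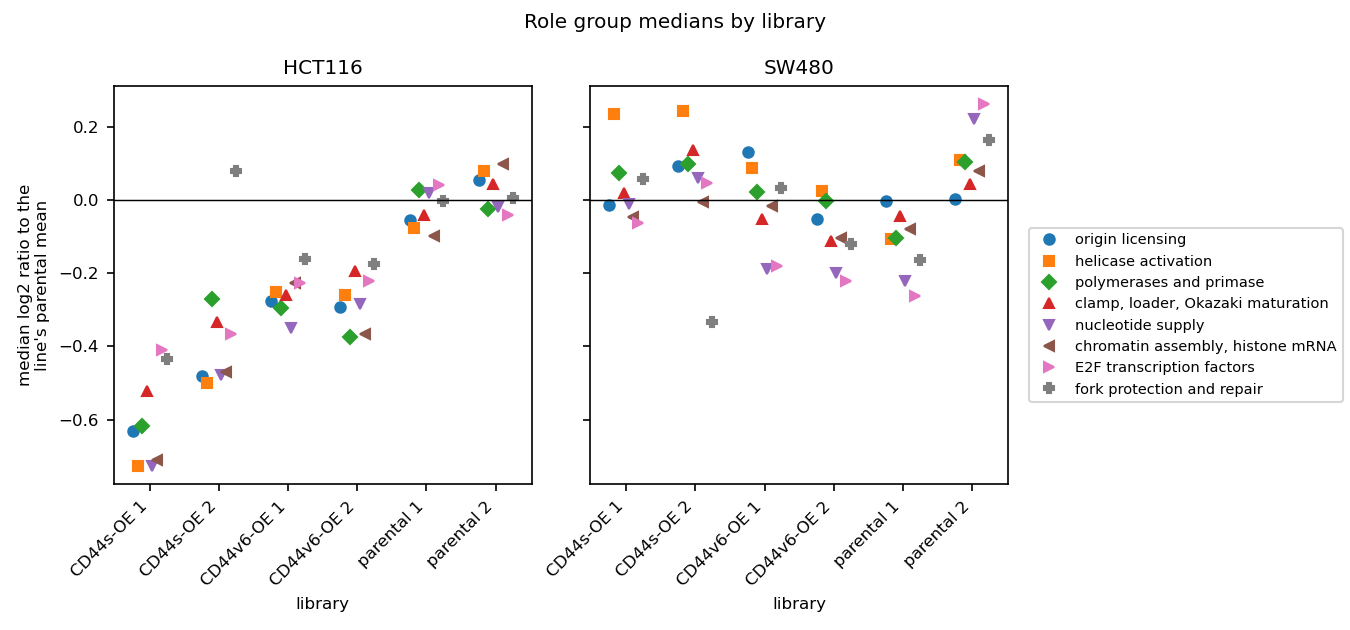
Median of each role group in each library, as the log2 ratio to the mean of the line's parental libraries, HCT116 on the left and SW480 on the right. In HCT116 CD44s-OE 1 all 8 medians are below 0, and in CD44s-OE 2 all but that of fork protection and repair; the SW480 medians lie on both sides of 0.

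Replication genes of SW480 did not shift in the same way. In SW480 CD44s-OE against parental cells, none of the 46 genes passed in edgeR's test or in DESeq2. In edgeR's test 4.72% of all 17539 tested genes passed in either direction. An unadjusted p under 0.05 was found for 1 of the 46, and for 2786 of the 17539. The median log2 fold change of the 46 was 0.06 (range -0.53 to 0.36), with 20 of 46 estimates below 0. Over all tested genes the median was 0.00, with 49.7% below 0. Both CD44s-OE libraries lay below both parental libraries for 6 genes and above them for 15, where 20.5% of all tested genes lay below and 22.1% above. MCM2 had 405 and 419 CPM in CD44s-OE cells, against 381 and 382 CPM in parental cells (0.11 ± 0.15, adjusted p = 0.796, 95% interval -0.23 to 0.45). GINS4 had 31.9 and 30.4 CPM in CD44s-OE cells, against 23.0 and 25.4 CPM in parental cells (0.36 ± 0.17, adjusted p = 0.319). For both genes the CD44s-OE libraries lay above the parental ones, and neither passed. At the other end E2F8 had 24.0 and 18.03 CPM in CD44s-OE cells, against 24.7 and 35.8 CPM in parental cells (-0.52 ± 0.22, adjusted p = 0.269), and without parental replicate 1 it passed as the 1 lower gene, where 3.16% of all tested genes were lower. Helicase activation was the role with all 6 estimates above 0 (median 0.22), and fork protection and repair had 4 of 5 below 0 (median -0.20). PCNA, CDC6 and CDT1 were at 0.22 ± 0.16, -0.11 ± 0.15 and -0.02 ± 0.17. The 2 SW480 parental libraries differed by over 1.3-fold in 11 of the 46 genes, with replicate 2 above replicate 1 for 37. Neither was counted over all tested genes. Of 7 tested epithelial markers 6 were lower in SW480 CD44s-OE cells, among them EPCAM (-1.80 ± 0.16, adjusted p = 0.000548). VIL1 did not pass, with 13.9 and 18.8 CPM of total counts in CD44s-OE, against 5.41 and 12.8 CPM in parental libraries. LUM, LYZ and CD14, fibroblast and myeloid markers, were higher. Of 3 tested fibroblast markers 2 had estimates below 0. LUM was scarce, at 0.48 and 0.78 CPM in CD44s-OE, against 0.02 CPM in each parental library. LYZ was scarce too, at 1.075 and 0.98 CPM in CD44s-OE, against 0.28 and 0.16 CPM in parental libraries. The 6 fibroblast markers summed to 3.06 to 3.64 CPM in CD44s-OE, within the 1.95 to 3.79 CPM of parental libraries. The 6 leukocyte markers summed to 4.23 to 5.33 CPM in CD44s-OE, against 1.51 to 2.11 CPM in parental libraries. The part of these markers was not tested.

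The genes described for HCT116 had the following levels in SW480 CD44s-OE and parental cells, with the log2 fold change after each, and none of them passed. MCM4 had 398 and 382 CPM in CD44s-OE cells, against 365 and 346 CPM in parental cells (0.13 ± 0.15). ORC1 had 40.4 and 38.6 CPM in CD44s-OE cells, against 31.0 and 37.6 CPM in parental cells (0.20 ± 0.17). GINS2 had 91.5 and 107 CPM in CD44s-OE cells, against 74.0 and 90.1 CPM in parental cells (0.28 ± 0.16). In all 3 genes both CD44s-OE libraries lay above both parental libraries, by little in ORC1 and GINS2. CDC45 had 52.7 and 61.2 CPM in CD44s-OE cells, against 51.6 and 50.8 CPM in parental cells (0.15 ± 0.16). LIG1 had 107 and 116 CPM in CD44s-OE cells, against 87.6 and 93.1 CPM in parental cells (0.30 ± 0.15). RFC5 had 61.7 and 56.6 CPM in CD44s-OE cells, against 62.7 and 59.1 CPM in parental cells (-0.04 ± 0.15). These genes act at the fork itself, in unwinding, ligation and clamp loading. DUT had 123 and 157 CPM in CD44s-OE cells, against 124 and 124 CPM in parental cells (0.17 ± 0.16). UNG had 100.1 and 95.8 CPM in CD44s-OE cells, against 79.5 and 85.2 CPM in parental cells (0.25 ± 0.15). CHAF1B had 62.5 and 61.0 CPM in CD44s-OE cells, against 61.2 and 65.1 CPM in parental cells (-0.03 ± 0.15). DUT and UNG both keep uracil out of DNA. E2F2, which was scarce in SW480, had 8.56 and 8.24 CPM in CD44s-OE cells, against 5.51 and 7.92 CPM in parental cells (0.32 ± 0.24). E2F1 had 133 and 144 CPM in CD44s-OE cells, against 139 and 139 CPM in parental cells (-0.01 ± 0.14). RRM2 had 303 and 268 CPM in CD44s-OE cells, against 284 and 411 CPM in parental cells (-0.28 ± 0.20). The CD44s-OE libraries of E2F1 lay on either side of the parental ones, and those of E2F2 above them. UHRF1 had 59.4 and 54.1 CPM in CD44s-OE cells, against 57.2 and 72.9 CPM in parental cells (-0.20 ± 0.17). MCM5 had 249 and 297 CPM in CD44s-OE cells, against 235 and 222 CPM in parental cells (0.26 ± 0.16). CLSPN had 18.7 and 13.6 CPM in CD44s-OE cells, against 13.8 and 23.5 CPM in parental cells (-0.21 ± 0.26).

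In SW480 CD44v6-OE against parental cells, again none of the 46 genes passed in edgeR's test or in DESeq2. In edgeR's test 0.570% of all tested genes passed in either direction. An unadjusted p under 0.05 was found for 2 of the 46, and for 1527 of all 17539 tested genes. The median was -0.01 (range -0.65 to 0.32), and both CD44v6-OE libraries lay below both parental libraries for 12 genes and above them for 5 (UNG, POLD1, GINS1, MCM2 and GINS4), where 18.5% of all tested genes lay below and 20.2% above. Nucleotide supply held the lowest estimates. RRM2 had 198 and 244 CPM in CD44v6-OE cells, against 284 and 411 CPM in parental cells (-0.65 ± 0.20, adjusted p = 0.289). TYMS had 156 and 188 CPM in CD44v6-OE cells, against 199 and 283 CPM in parental cells (-0.49 ± 0.19, adjusted p = 0.473). Both genes differed between the 2 parental libraries as well, and without parental replicate 1 both passed as lower, where 1.32% of all tested genes did. Between CD44s-OE and CD44v6-OE cells of SW480, none of the 46 genes passed in edgeR's test or in DESeq2. In edgeR's test 2.12% of all tested genes passed in either direction. An unadjusted p under 0.05 was found for 2 of the 46, and for 1894 of all 17539 tested genes. The medians were 0.07 for the 46 and 0.01 for all tested genes. TYMS had 229 and 247 CPM in CD44s-OE cells, against 156 and 188 CPM in CD44v6-OE cells (0.47 ± 0.19, adjusted p = 0.393), and it passed as higher without either parental library in turn, where 2.1% and 2.16% of all tested genes did.

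The difference between the lines was tested directly, as the log2 fold change in SW480 minus that in HCT116, in 1 fit over all 12 libraries. For CD44s-OE against parental cells, 12 of the 46 genes had a higher value in SW480 and 0 a lower one, where 1.65% of all 19567 tested genes were higher and 2.27% lower. The median difference was 0.57, against 0.00 for all tested genes. GINS4 differed by 1.17 ± 0.21, adjusted p = 0.0127, MCM4 by 1.07 ± 0.20, adjusted p = 0.0146, and MCM2 by 0.97 ± 0.19, adjusted p = 0.02. ORC1 and GINS2 differed by 0.99 ± 0.21, adjusted p = 0.028 and 0.96 ± 0.21, adjusted p = 0.0323. E2F2, DUT, UNG, LIG1, CDC45, RFC5 and CHAF1B made up the rest, with differences of 0.71 to 1.00. Origin licensing held 3 of the 12, out of its 10 genes, and helicase activation 3, out of its 6 genes. CDC6, TYMS, RRM2, UHRF1, E2F1, E2F8 and CLSPN did not pass, with differences of 0.29, 0.45, 0.42, 0.42, 0.17, -0.11 and 0.04, nor did CDT1, MCM5 and PCNA, at 0.50, 0.65 and 0.70. Only ORC1, MCM2, GINS4 and MCM4 passed as higher without HCT116 parental replicate 2, and likewise without SW480 CD44s-OE replicate 2, where 0.503% and 0.455% of all tested genes did. Without HCT116 parental replicate 1, 7 passed (0.634% of all tested genes), and without either HCT116 CD44v6-OE library in turn, 6 (0.767% to 0.776%). Without HCT116 CD44s-OE replicate 2, 20 passed (2.08%), without SW480 parental replicate 2, 18 (2.26%), and without SW480 parental replicate 1, 8 (1.49%). For CD44v6-OE against parental cells no member passed in the same edgeR fit, where 0.409% of all tested genes did in either direction. An unadjusted p under 0.05 was found for 9 members (median 0.28), and for 1733 of all 19567 tested genes (median 0.02). For CD44s-OE against CD44v6-OE cells none passed, where 0.491% did. Here it was found for 13 members (median 0.28), and for 1645 of all tested genes (median -0.02). The only tool run on these differences was edgeR.

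Between parental SW480 and parental HCT116 cells, 22 of the 46 genes were lower in SW480 and 9 higher in the joint fit, where 29.2% of all tested genes were lower and 31.7% higher. The number that differed in either direction was thus near the share of all tested genes, 60.9%. CPM in this paragraph were scaled over all 12 libraries. E2F2 had 5.48 and 7.83 CPM in SW480 parental cells, against 47.1 and 40.2 CPM in HCT116 parental cells (-2.71 ± 0.20, adjusted p = 7.57e-08). Its relative E2F1 went the other way, with 138 and 137 CPM in SW480 parental cells, against 68.4 and 64.7 CPM in HCT116 parental cells (1.05 ± 0.13, adjusted p = 1.4e-05). The lines did not overlap for either gene. TK1 had 109 and 115 CPM in SW480 parental cells, against 369 and 359.9 CPM in HCT116 parental cells (-1.70 ± 0.14, adjusted p = 1.85e-07). CDT1 had 149.8 and 119 CPM in SW480 parental cells, against 314 and 327 CPM in HCT116 parental cells (-1.25 ± 0.16, adjusted p = 1.44e-05). POLE, the catalytic subunit of polymerase epsilon, and MCM5 were also lower in SW480, at -1.24 ± 0.13, adjusted p = 2.39e-06 and -1.10 ± 0.15, adjusted p = 3.04e-05. Higher in SW480 were BRCA2 (1.14 ± 0.29, adjusted p = 0.00397), POLA2 (1.13 ± 0.31, adjusted p = 0.00745), RFC3, DUT, MCM7, RFC4, POLA1 and RFC2. MCM2, MCM4, CDC6, CDC45, PCNA, RRM2 and E2F8 did not pass, with log2 fold changes of -0.18 to 0.28.

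**Figure D5:**
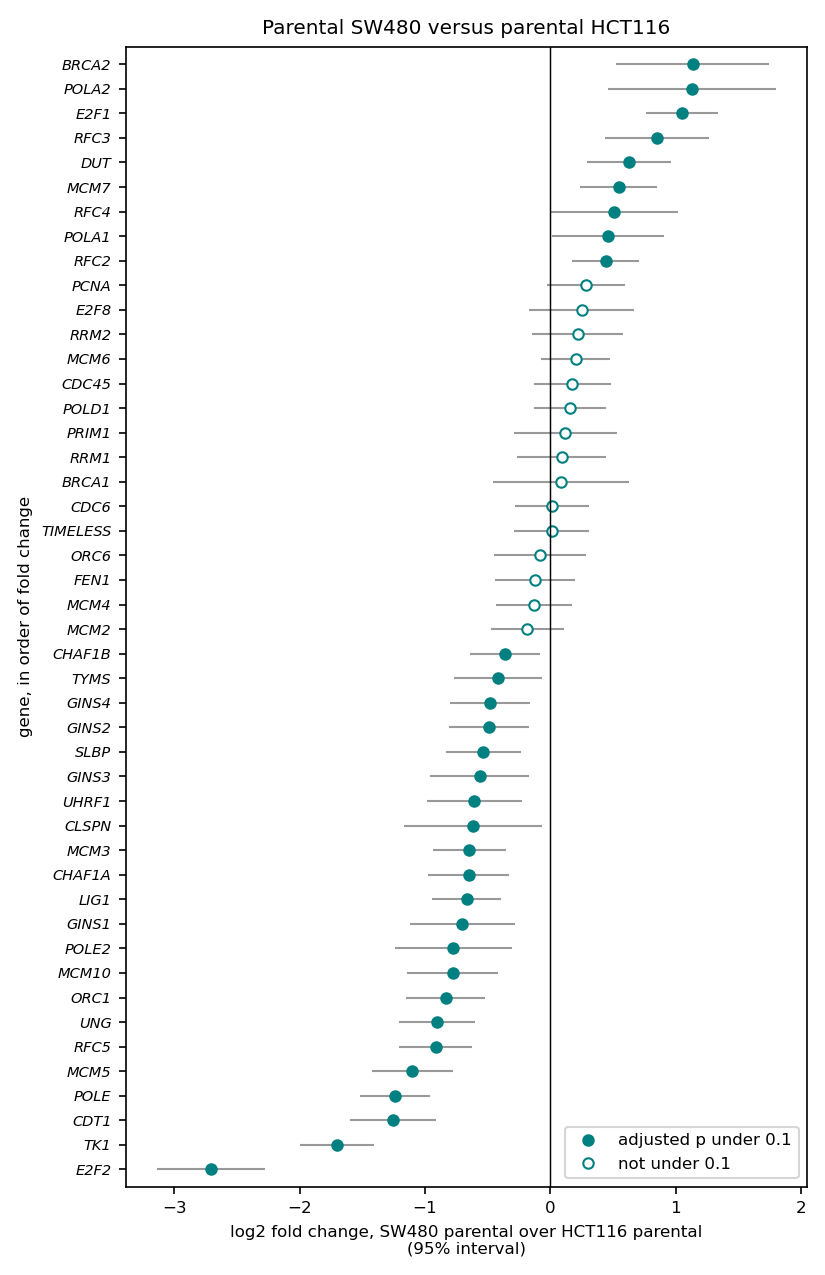
log2 fold change of each gene in parental SW480 over parental HCT116 cells, with its 95% interval, genes in order of the value; filled points have an adjusted p under 0.1. E2F2 lies farthest below 0 at -2.71 and BRCA2 farthest above at 1.14.

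The genes with a promoter window are set out here by presence of the E2F-type motif, beside their change in HCT116 CD44s-OE cells. MCM4, MCM5, GINS4 and E2F8 had no window and are left out. Of the 23 genes with the motif 13 fell, with a median log2 fold change of -0.50. Of the 19 genes with a window but without it 13 fell, with a median of -0.56. Among all tested genes 5.71% fell. E2F1, whose stretch above holds the motif at 2 places, was at -0.15 ± 0.13, and MCM2, also with 2, was at -0.84 ± 0.13. PRIM1, ORC1 and RFC5, without the motif in their windows, were at -0.90 ± 0.22, -0.76 ± 0.13 and -0.73 ± 0.13. These are descriptions, and no test was run on them.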

How the data were processed

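RNA isolated with TRIzol was sequenced in paired ends at BGI (DNBSEQ); how transcripts were selected is not given in the sources used here. The authors filtered reads with SOAPnuke, aligned them to hg19 with STAR 2.7.9a, marked duplicates with Sambamba and counted reads per GENCODE gene with featureCounts (Subread 2.0.3); the deposited table holds raw counts, and per the file headers the program ran with -p, without counting pairs as 1. The deposited log2 values, variance-stabilised with DESeq2 1.30.1 by the authors, served only for gene symbols. Counts were tested with edgeR 4.0.16 in R 4.3.3 (quasi-likelihood, TMM, filterByExpr, robust fit) on the 6 libraries of a line, or on all 12 with line, group and their interaction, with Benjamini-Hochberg adjustment over all tested genes, and a gene passed at an adjusted p under 0.1. Errors of log2 fold changes are standard errors (limma 3.58.1 moderation), those of TPM are SD. The 46 members and all gene lists were chosen with earlier results of these data known. Values in full are given for MCM2, MCM5, CDC6, CDT1, CDC45, PCNA, RRM2, TYMS, E2F1, E2F2, E2F8, UHRF1 and CLSPN whatever their values, for up to the 8 largest changes per direction that passed within a line, and for genes whose change differed between the lines; further genes were named after their values were seen. Alternatives were RLE scaling, no filter, DESeq2 1.42.0, a replicate block, only the 4 libraries compared, adjusted p under 0.05 and each library left out; leaving out mitochondrial genes, and all alternatives of the joint fit, were added after seeing the data. Promoter windows came from RefSeq (GRCh38.p14), whereas counts are on hg19.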

Additional observations from a re-analysis of the deposited data

Results flagged for a closer look

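The log2 fold change of CD44s-OE against parental cells differed between the lines, by the interaction test over all 12 libraries (edgeR, adjusted p under 0.1), for 12 of the 46 genes. Each value is SW480 minus HCT116, and of all tested genes 1.65% were higher and 2.27% lower by this test.
The value was larger in SW480 for GINS4 by 1.17 (adjusted p = 0.0127), MCM4 by 1.07 (adjusted p = 0.0146) and E2F2 by 1.00 (adjusted p = 0.0753). It was also larger for ORC1 by 0.99 (adjusted p = 0.028), MCM2 by 0.97 (adjusted p = 0.02) and GINS2 by 0.96 (adjusted p = 0.0323). Next came DUT by 0.89 (adjusted p = 0.0568), UNG by 0.81 (adjusted p = 0.0553) and LIG1 by 0.81 (adjusted p = 0.0361). The smallest of these differences were those of CDC45 by 0.73 (adjusted p = 0.0879), RFC5 by 0.71 (adjusted p = 0.0748) and CHAF1B by 0.71 (adjusted p = 0.0646). In HCT116 all 12 genes were lower in both CD44s-OE libraries than in both parental libraries, as were 24.0% of all tested genes. In SW480 none of the 12 passed. The 12 were chosen by a test on these same libraries, so their lack of overlap adds nothing to it. Groups of 2 libraries are too small for a test of single outlying libraries.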

How the results depend on the processing

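With 2 libraries a group, single libraries decided many calls; percentages are the share of all tested genes called in the same direction under the same setting. The number of members lower in HCT116 CD44s-OE against parental cells (28) was 15 with only the groups compared (2.15%) and 1 to 39 with each HCT116 library left out in turn (0.386% to 13.7%; higher 0 to 1, 1.01% to 14.9%); it was 22 at an adjusted p under 0.05 (2.9%), 29 with RLE scaling (6.15%), 31 without a filter (3.36%) and 32 with DESeq2 (3.62%). In HCT116 CD44v6-OE against parental cells (0 lower), it was 3 without a filter (0.233%), 1 with DESeq2 (0.164%), 17 with only the groups compared (3.24%) and 0 to 18 with each library left out (0% to 3.16%). In HCT116 CD44s-OE against CD44v6-OE cells (0 lower, 0 higher), it was 4 lower without a filter (0.747%), 4 lower with DESeq2 (0.572%), and 0 to 14 lower (0.0382% to 6.98%) and 0 to 2 higher (0% to 5.89%) with each library left out. In SW480 CD44s-OE against parental cells 0 to 1 were lower on leaving out a library (0.289% to 7.5%), and in CD44v6-OE against parental cells 1 without a filter (0.268%) and 0 to 2 on leaving out a library (0% to 1.32%). In SW480 CD44s-OE against CD44v6-OE cells 1 was higher with only the groups compared (2.22%) and 0 to 1 on leaving out a library (0.0544% to 2.16%). The line difference of the CD44s-OE change (12 higher) was 6 at an adjusted p under 0.05 (0.7%) and 4 to 20 with each library left out (0.455% to 2.26%), and that of CD44s-OE against CD44v6-OE cells was 0 to 1 (0.00968% to 0.384%). Fewer libraries leave fewer residual degrees of freedom; otherwise the cause was not tested. No value given for a named gene that passed changed sign in any setting. Of 128 alternative values of the medians 123 moved by less than the spread between replicates.

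A fit with the replicate number as a block gave 30 lower members in HCT116 CD44s-OE against parental cells (6.76%), 1 (GINS2) in CD44s-OE against CD44v6-OE cells (0.721%), and 12 and 1 higher members in the line differences of CD44s-OE against parental (1.55%) and against CD44v6-OE cells (0.138%); it changed no other count of members. Deviations of same-numbered libraries correlated at 0.061, 0.035 and 0.106 for HCT116. For SW480 the correlations were -0.148, 0.134 and -0.116. The labels do not say that a number marks a shared culture, so the samples share only a number.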
